A study of Mus musculus with 31 samples.

Results

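Heat shock proteins and DnaJ proteins are the molecular chaperones that fold, refold, transport and hand over other proteins. The genes described here are the 74 of 55487 in the table whose symbol starts with Hspa, Hspb, Hspd, Hspe, Hsph or Hsp90, or with Dnaja, Dnajb or Dnajc and a digit, leaving out Hspa5 and symbols marked as pseudogenes by -ps. Of these, 29 are Hsp genes and 45 are Dnaj genes, and 67 passed the filter on low counts and were tested. The choice used names alone and no measured value. The samples were 31 bulk mRNA libraries from male mouse kidneys (B6 background), each with its own number in the labels. The labels do not say outright that each number is 1 animal, so the p-values measure the spread between these samples. There were 8 libraries of WT and 7 of Nbl1 HET mice given phosphate-buffered saline (PBS), and 8 of WT and 8 of Nbl1 HET mice given cisplatin, an anticancer platinum compound whose main side effect is injury of the renal tubule. Dosing ran for 4 weeks from 8 weeks of age, with collection 3 days afterwards, and the stated age at collection, 11 weeks, is shorter than their sum. The sources used here give neither the kind of Nbl1 allele nor the cisplatin dose.

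Hsp70 proteins, encoded by the Hspa genes, bind exposed hydrophobic stretches of client proteins in a cycle driven by ATP. DnaJ proteins, also called Hsp40, deliver clients to Hsp70 and start ATP hydrolysis through their J domain, while Hsp110 proteins such as Hsph1 exchange the nucleotide. Hsp90 matures kinases and steroid receptors, the Hspd1 and Hspe1 products form the folding chamber of the mitochondrial matrix, and the small heat shock proteins of the Hspb genes hold unfolded clients without ATP. Part of the family is made constantly and part is induced by the heat shock factor Hsf1, which binds repeats of nGAAn in alternating orientation.

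Total counts per library ran from 29850000 to 37300000 (WT PBS), 29230000 to 36700000 (HET PBS), 24650000 to 28860000 (WT cisplatin) and 26870000 to 31920000 (HET cisplatin). Nbl1, the targeted gene, was 3.71 to 7.9 CPM (counts per 1000000, scaled between libraries by the trimmed mean of M values, TMM) in WT PBS against 0.1065 to 4.2 in HET PBS, and 10.7 to 26.2 in WT cisplatin against 0.861 to 13.9 in HET cisplatin libraries. In 5 libraries the reads of Nbl1 or of its neighbour Htr6 went against the genotype label. These were WT PBS 6, with Nbl1 at 3.71 CPM, and HET PBS 1 and 6 and HET cisplatin 3 and 4, with Nbl1 at 0.1065, 0.4341, 1.078 and 0.8606 CPM. Htr6 was 0.7559 CPM in the library labelled WT PBS 6 and at most 0.06774 in the other WT libraries. All libraries are called by their labels, and results that rest on these 5 are given with and without them. The summed level of 5 proximal tubule markers (Lrp2, Slc34a1, Slc5a12, Slc22a6, Slc22a7) was 12063 to 14417 CPM in WT PBS and 661 to 4601 in WT cisplatin libraries, with 11658 to 13719 and 623.8 to 4008 in HET, and none of the 5 was at 0. The sum of 5 macrophage markers (Adgre1, C1qa, C1qb, Cd68, Itgam) was 20.8 to 32.9 against 45.8 to 95.7 CPM in WT and 21.9 to 31.7 against 13.5 to 86.5 in HET, also with none at 0. The sum of 4 injury markers (Havcr1, Lcn2, Krt20, Spp1) was 367 to 520.4 against 4817 to 6167 CPM in WT and 435 to 562 against 2485 to 6227 in HET, and that of 5 endothelial markers 299.9 to 341 against 190.3 to 225 and 286 to 333 against 198 to 219, none at 0. That of 4 distal nephron markers (Umod, Slc12a1, Slc12a3, Aqp2) was 5358 to 6054 against 1663 to 3796 CPM in WT and 5399 to 5875 against 1244 to 3904 in HET. Of these 4, 3 were lower and 1 higher past the threshold in each genotype. In bulk tissue, fewer cells of a type and less RNA per cell cannot be told apart, and the part of these shifts in the results below was not tested.

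Promoters are shown for some of the members whose behaviour the text returns to, as RefSeq gives them for GRCm38.p6. Of the 74 members, 59 are in that table, with 76 promoters of 300 bases each (250 before to 50 after a start). The 15 members not in it were not searched, and they include Hspa8, Hsp90aa1, Hsp90ab1 and Dnajc12. Each was searched on both strands for GAANNTTCNNGAA, the exact form of a heat shock element with 3 units, and for the 2-unit forms GAANNTTC and TTCNNGAA, which it contains. The 3-unit form lies in 0.603% of all 32851 promoters and in 6 of the 76, which belong to 4 members: Hspd1, Hspe1, Dnajb6 and Hsph1. A 2-unit form lies in 15.1% of all promoters and in 18 of the 76. Every stretch printed below was chosen with a match in it. Of members not printed, Hspb8 and Dnajb1 have no 2-unit match in the 250 bases before the start, and Dnaja1 has 1. Capitals mark the 3-unit matches in the first sequence below, which is shown because Hspd1 and Hspe1 are divergent neighbours that share these 215 bases between their RefSeq starts (chr1:55087933-55088147, plus strand). Its 2 overlapping matches lie 89 to 72 bases before the Hspe1 start.
Hspd1-Hspe1: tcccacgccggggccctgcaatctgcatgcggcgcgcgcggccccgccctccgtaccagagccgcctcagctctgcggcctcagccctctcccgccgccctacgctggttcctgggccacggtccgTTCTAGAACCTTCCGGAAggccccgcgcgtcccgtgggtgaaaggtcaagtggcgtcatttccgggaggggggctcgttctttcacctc
The next pair is the 150 bases before the starts of Hspa1a (chr17:34972157-34972306, minus strand) and Hspa1b (chr17:34959239-34959388, minus strand), shown because the 2 inducible Hsp70 genes are near copies. Their 250 bases before the start are 98.8% identical (247 of 250), and the 150 printed differ at 1 base. Capitals mark the 2-unit match.
Hspa1a: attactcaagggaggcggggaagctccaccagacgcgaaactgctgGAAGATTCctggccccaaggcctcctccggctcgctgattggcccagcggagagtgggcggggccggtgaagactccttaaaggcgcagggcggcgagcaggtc
Hspa1b: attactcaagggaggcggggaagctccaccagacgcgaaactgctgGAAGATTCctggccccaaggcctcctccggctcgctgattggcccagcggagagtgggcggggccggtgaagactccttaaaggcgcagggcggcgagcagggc
The last long stretch is the 250 bases before the start of Hspb1 (chr5:135887669-135887918, plus strand), the member named Hspb with the highest median CPM after cisplatin, with its 2 matches to a 2-unit form in capitals. No 3-unit match lies in this window.
Hspb1: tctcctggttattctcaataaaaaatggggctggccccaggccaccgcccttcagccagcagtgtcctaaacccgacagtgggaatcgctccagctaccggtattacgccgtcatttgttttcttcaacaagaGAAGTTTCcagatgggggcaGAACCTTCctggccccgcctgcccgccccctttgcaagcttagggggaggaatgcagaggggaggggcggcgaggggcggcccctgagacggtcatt
The remaining 3-unit matches are short. That of Dnajb6 (chr5:29735846-29735870, plus strand, with flanking bases) precedes the start, and that of Hsph1 (chr5:149636288-149636300, minus strand) follows it.
Dnajb6: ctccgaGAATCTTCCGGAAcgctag
Hsph1: TTCTGGAAAGTTC
A match describes these letters only.

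Compared per length, as transcripts per 1000000 (TPM), the untreated kidney was dominated by few chaperones. In WT PBS libraries the median level of Hspa8, the constant cytosolic Hsp70, was 535 TPM (373 to 930.2). Hsp90ab1, the constant cytosolic Hsp90, came next at 328 TPM (297 to 398), and its range overlapped that of Hspa8. Hspd1 (197), Hspe1 (161) and Hspa9 (157) of the mitochondrial matrix followed, with overlapping ranges between neighbours. These 5 genes held 53.7% of the summed TPM of all 74 members. Hsp90aa1 (148), the inducible cytosolic Hsp90, Hsp90b1 (132) of the endoplasmic reticulum (ER) and Dnaja1 (109.6), a cytosolic partner of Hspa8, stood below. Dnajc12, at 74.6 TPM, was number 9 of 74 by level and the highest Dnajc gene, whereas the small heat shock genes were low, with Hspb1 at 9.88 and Hspb8 at 1.63 TPM.

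The summed TPM of all members was 2729.9 ± 366 (SD, n = 8) with PBS and 2151 ± 95 (SD, n = 8) with cisplatin in WT libraries, and 2857 ± 533 (SD, n = 7) and 2296 ± 137 (SD, n = 8) in HET. By compartment the sums went different ways. Mitochondrial members summed to 662 ± 30 TPM in WT PBS and 438 ± 72 in WT cisplatin libraries, and the small heat shock genes to 22.9 ± 3.3 and 78.3 ± 11 TPM (SD, n = 8 each). ER members summed to 282 ± 15 and 247 ± 20 TPM, and the heat-inducible cytosolic members to 1339 ± 315 and 991 ± 83 TPM. The list of 11 called heat-inducible also holds Hspa8 and Hsp90ab1, named constant above, with medians of 535 and 328 TPM in WT PBS. Its sum is therefore not one of stress-induced genes alone. The spread of the heat-inducible sum was wide in PBS libraries and narrow in cisplatin libraries of both genotypes. In HET the sums were 1478 ± 429.9 (SD, n = 7) and 1066 ± 91 TPM (SD, n = 8). PBS and cisplatin groups also differed in their share of samples numbered in the 600 series. The part of that difference in this spread was not tested.

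**Figure D1:**
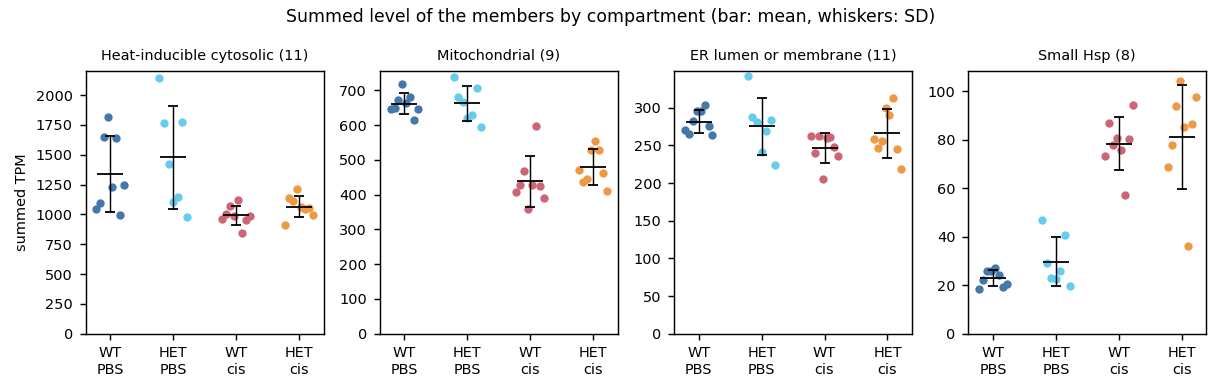
Summed TPM of the members of 4 compartments (vertical axis) in each library, by group on the horizontal axis, with the mean as a bar and the SD as whiskers. The small heat shock sum is 18.4 to 27.1 in WT PBS and 57.2 to 94.4 in WT cisplatin libraries, and the mitochondrial sum is 615.8 to 719 and 358 to 598.

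Under TMM scaling more chaperone genes were lower than higher after cisplatin, and scaled to library totals more were higher than lower. In WT mice 34 of the 67 tested members fell and 17 rose at an adjusted p under 0.05 (edgeR quasi-likelihood test, Benjamini-Hochberg over 19268 genes), against 29.6% of all tested genes lower and 33.6% higher. In HET mice 33 fell and 17 rose, against 28% and 31% of all genes. The median log2 fold change of the members was -0.22 in WT and -0.26 in HET mice, and that of all tested genes was 0.06 in both. Of the 67, 31 fell and 17 rose in both genotypes, 3 fell in WT alone (Hspa12a, Hspa14, Dnajc2), 2 fell in HET alone (Dnajb1, Hspa12b), and none went in opposite directions. None of these 5 differed between the genotypes past the threshold in the interaction test (adjusted p = 0.889 to 0.999), and the calls of Hspa14, Dnajc2 and Hspa12b were lost when single libraries were left out. Leaving out single libraries also brought a call in the other genotype, for Dnajb1 in WT in 6 of 31 fits (lowest adjusted p = 0.0233), for Hspa14 in HET in 6 (0.0323) and for Hspa12a in HET in 1 (0.0366). Without the 5 libraries at odds with their label, 33 fell and 17 rose in WT, and 32 and 17 in HET. Scaled to library totals, the median of all genes was 0.45 in WT and 0.46 in HET, 32 members were higher against 22 lower in WT, and 32 against 18 in HET, where 61.4% and 62.2% of all genes rose and 14.9% and 12.5% fell. Tested with limma on log2(TPM + 1), 31 members were higher against 20 lower in WT and 35 against 17 in HET, where 62.6% and 63.9% of all genes rose and 12.7% and 10.3% fell. Under TMM, library totals and log2(TPM + 1) alike, and in both genotypes, 17 of the 67 members fell and 17 rose, where 9.52% of all tested genes fell and 27% rose by the same rule. The 17 that fell are Hspd1, Hspe1, Hsph1, Hspa8, Hsp90ab1, Dnaja1, Dnaja3, Dnaja4, Dnajb6, Dnajc3, Dnajc6, Dnajc12, Dnajc13, Dnajc19, Dnajc22, Dnajc28 and Dnajc30. The 17 that rose are Hspa2, Hspb1, Hspb2, Hspb6, Hspb8, Hspbap1, Dnaja2, Dnajb3, Dnajb5, Dnajb13, Dnajc4, Dnajc5, Dnajc7, Dnajc8, Dnajc9, Dnajc10 and Dnajc17. The calls of the other members below hold under TMM and not under every scaling. In WT, 4 members lower under TMM were higher past the threshold under another scaling (Dnajc1, Dnajc2, Dnajc25, Hspa14), and in HET 5 were (Dnajc1, Dnajc16, Hspa4, Hspa9, Hspa13). The plot of fold changes shows each member with its error.

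**Figure D2:**
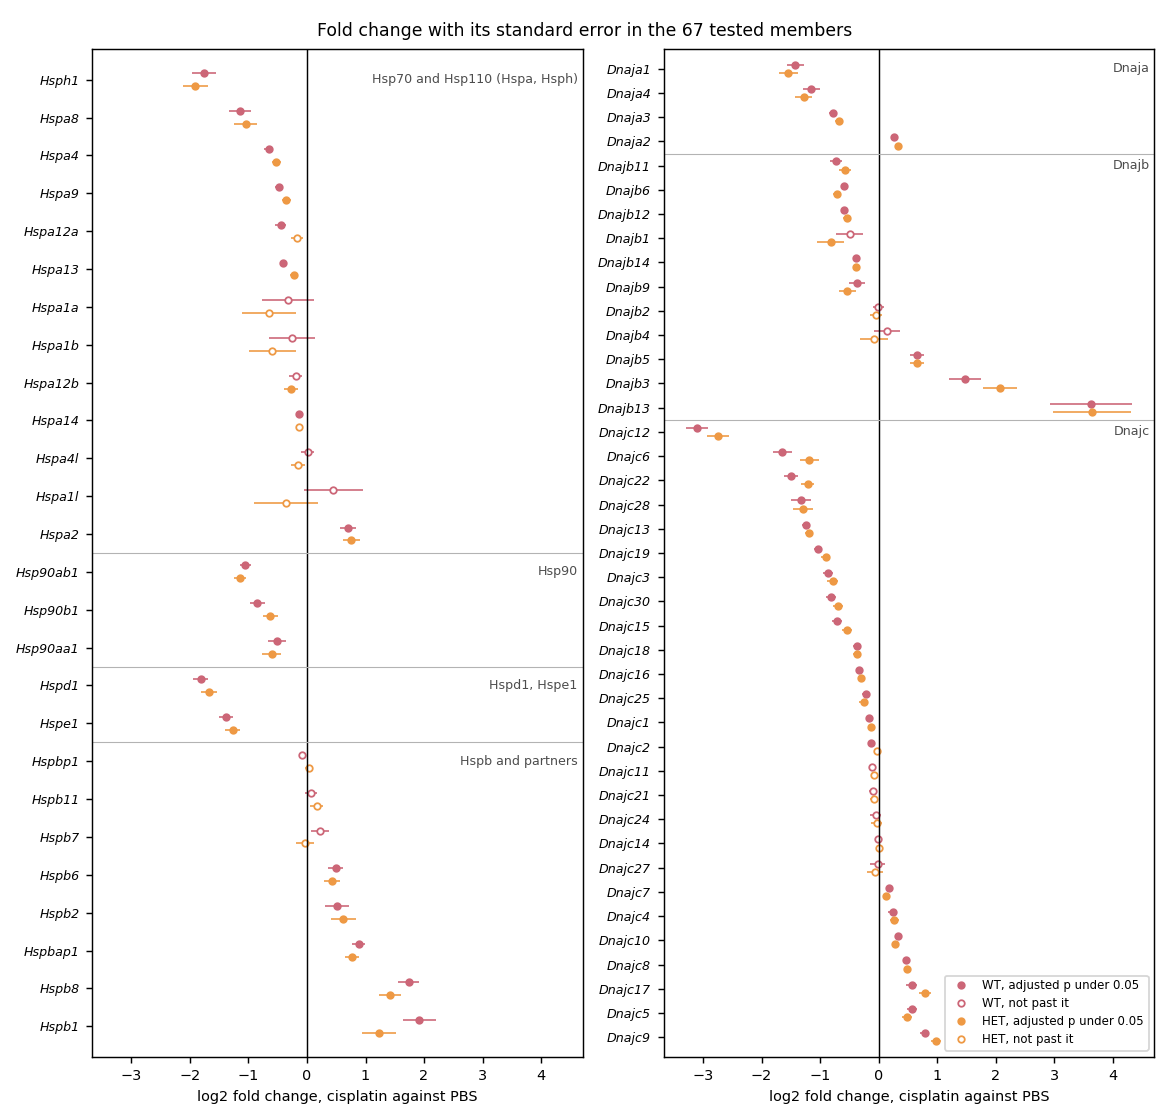
Log2 fold change of cisplatin against PBS (horizontal axis, bars are SE) in WT and HET mice for the 67 tested members, by family, with filled points past an adjusted p of 0.05. Values run from -3.10 (Dnajc12) to 3.63 (Dnajb13) in WT, and the 3 Hsp90 genes and the Hspd1-Hspe1 pair lie below 0 in both genotypes under this TMM scaling (Hsp90aa1 is at 0.06 in WT as log2(TPM + 1)).

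Most mitochondrial chaperones fell under TMM scaling. Of 9 tested members, 8 fell in each genotype and none rose, where 29.6% (WT) and 28% (HET) of all genes fell. The median log2 fold change was -0.81 in WT and -0.70 in HET. Scaled to library totals 7 were lower and 1 higher in WT, and 6 and 1 in HET. There 14.9% and 12.5% of all genes fell and 61.4% and 62.2% rose. Hspd1 is the large subunit of the matrix folding chamber. Its lowest, median and highest levels were 630.2, 685 and 778 CPM in WT PBS, 618.4, 728 and 822 in HET PBS, 144, 172 and 317 in WT cisplatin and 173, 218 and 288 in HET cisplatin libraries. All cisplatin libraries lay below all PBS libraries, and the log2 fold change was -1.82 ± 0.13 (SE) in WT and -1.67 ± 0.13 in HET mice (adjusted p = 3.22e-13 and 4.18e-12). Hspe1, the lid of the same chamber, was 132 to 174 CPM in WT PBS and 47.5 to 85.5 in WT cisplatin libraries, and the log2 fold change was -1.38 ± 0.12 (SE) in WT and -1.27 ± 0.13 in HET mice (adjusted p = 3.81e-11 and 5.18e-10). These 2 genes lie head to head (chr1:55077835-55088243 on the minus strand and chr1:55088132-55091307 on the plus strand of GRCm38, GENCODE M21), and their annotated exons overlap at the 5' ends.
Hspa9, the Hsp70 of the matrix, fell less: it was 675 to 765 CPM in WT PBS and 445 to 669 in WT cisplatin libraries, without overlap, with log2 fold changes of -0.48 in WT and -0.35 in HET mice. Scaled to library totals, Hspa9 was not past the threshold, at -0.09 in WT and 0.05 in HET, and as log2(TPM + 1) Hspa9 was higher in HET (0.13, adjusted p = 0.0498 with limma). Its partner Dnaja3 was 117 to 137 CPM in WT PBS and 63.7 to 87 in WT cisplatin libraries (log2 fold change -0.79 in WT and -0.68 in HET). Dnajc19 and Dnajc15, J proteins of the inner membrane import motor, fell by 1.04 and 0.71 in WT on the log2 scale, and Dnajc28 and Dnajc30 fell by 1.33 and 0.81. Exons of Dnajc19 overlap those of Fxr1 on the opposite strand, and whether counting used strand is not given. Among all members, 29 have exons that overlap those of another annotated gene, and the text does not flag each case. They include Dnaja1 (Smu1), Dnaja3 (Coro7 and Vasn), Dnaja4 (Wdr61), Dnajb6 (Gm5129), Dnajc7 (Cnp and Nkiras2), Dnajc17 (Zfyve19), Dnajc30 (Bud23) and Hspa1a (Gm20481). How far reads of the other genes entered their counts was not tested. Dnajc11 alone did not pass the threshold (-0.12, adjusted p = 0.0827 in WT).

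Of the cytosolic Hsp70 and Hsp90 machines, Hspa8, Hsph1, Hsp90ab1, Dnaja1 and Dnaja4 fell in both genotypes under all 3 scalings. Among the 11 genes listed as heat-inducible cytosolic, WT mice had 5 lower and 1 higher and HET mice 6 lower and 1 higher, and 5 and 4 did not pass. Of all tested genes, 29.6% were lower in WT and 28% in HET, and 33.6% and 31% higher. The constant genes Hspa8 and Hsp90ab1 are on this list and among those lower. The single riser was Hspb1. With library totals the counts were 4 lower and 3 higher in WT and 4 and 2 in HET. There 14.9% and 12.5% of all genes fell and 61.4% and 62.2% rose. Hsph1, the Hsp110 nucleotide exchange factor, had lowest, median and highest levels of 136, 185 and 302 CPM in WT PBS, 131, 229.9 and 413 in HET PBS, 49.7, 62.3 and 77.1 in WT cisplatin and 53.1, 70 and 86.9 in HET cisplatin libraries. Every cisplatin library was below every PBS library, and the log2 fold change was -1.75 ± 0.20 (SE) in WT and -1.90 ± 0.21 in HET mice (adjusted p = 7.06e-09 and 2.99e-09). Dnaja1, a J protein that works with Hspa8, was 274 to 534 CPM in WT PBS and 126 to 167 in WT cisplatin libraries. Its groups did not overlap in either genotype, and the log2 fold change was -1.42 ± 0.15 (SE) in WT and -1.54 ± 0.16 in HET mice (adjusted p = 1.34e-09 and 6.13e-10).
Hspa8 had levels of 1267, 1694 and 3099 CPM in WT PBS, 1398, 2331 and 2969.9 in HET PBS, 681, 843 and 1203 in WT cisplatin and 722, 1031 and 1565 in HET cisplatin libraries. The WT groups did not overlap, whereas in HET the highest cisplatin library (HET cisplatin 6, 1565 CPM) exceeded the lowest PBS library (HET PBS 7, 1398 CPM), and the log2 fold change was -1.14 ± 0.19 (SE) in WT and -1.05 ± 0.19 in HET mice (adjusted p = 4.01e-06 and 2.4e-05). Counts of Hspa8 were fractional in all 31 libraries, as were those of Hsp90aa1, Dnaja1, Dnajb6, Hspa4l, Hspa1a and Hspa1b, and how the counting split shared reads is not given. Hsp90ab1 was 1104 to 1609 CPM in WT PBS and 573 to 677 in WT cisplatin libraries, without overlap, and the log2 fold change was -1.05 ± 0.10 (SE) in WT and -1.14 ± 0.10 in HET mice (adjusted p = 1.1e-10 and 5.56e-11). Hsp90aa1, its inducible counterpart, changed less (-0.52 in WT and -0.60 in HET mice), its groups overlapped, and it was not past the threshold with library totals (-0.12 and -0.19).
Dnaja4 fell by 1.15 in WT and 1.28 in HET mice on the log2 scale. Dnajb1, the main inducible J protein of class B, fell in HET (-0.82 ± 0.24, adjusted p = 0.00337) and had a value of -0.50 ± 0.23 in WT (adjusted p = 0.058), a difference between genotypes that was not past the threshold (interaction -0.33, adjusted p = 0.941). In WT it was past the threshold with DESeq2 (-0.52, adjusted p = 0.0367). With library totals it missed the threshold in HET (adjusted p = 0.0997). Hspa4, an Hsp110 relative, fell by 0.65 and 0.52 under TMM scaling, while its value on the log2(TPM + 1) scale was 0.05 in WT and 0.18 in HET, the latter past the threshold (adjusted p = 0.00628 with limma). Hspa4l (0.01 in WT and -0.15 in HET mice, adjusted p = 0.919 and 0.247) and Dnajb4 (0.14 in WT and -0.08 in HET mice, adjusted p = 0.598 and 0.782) did not pass.

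**Figure D3:**
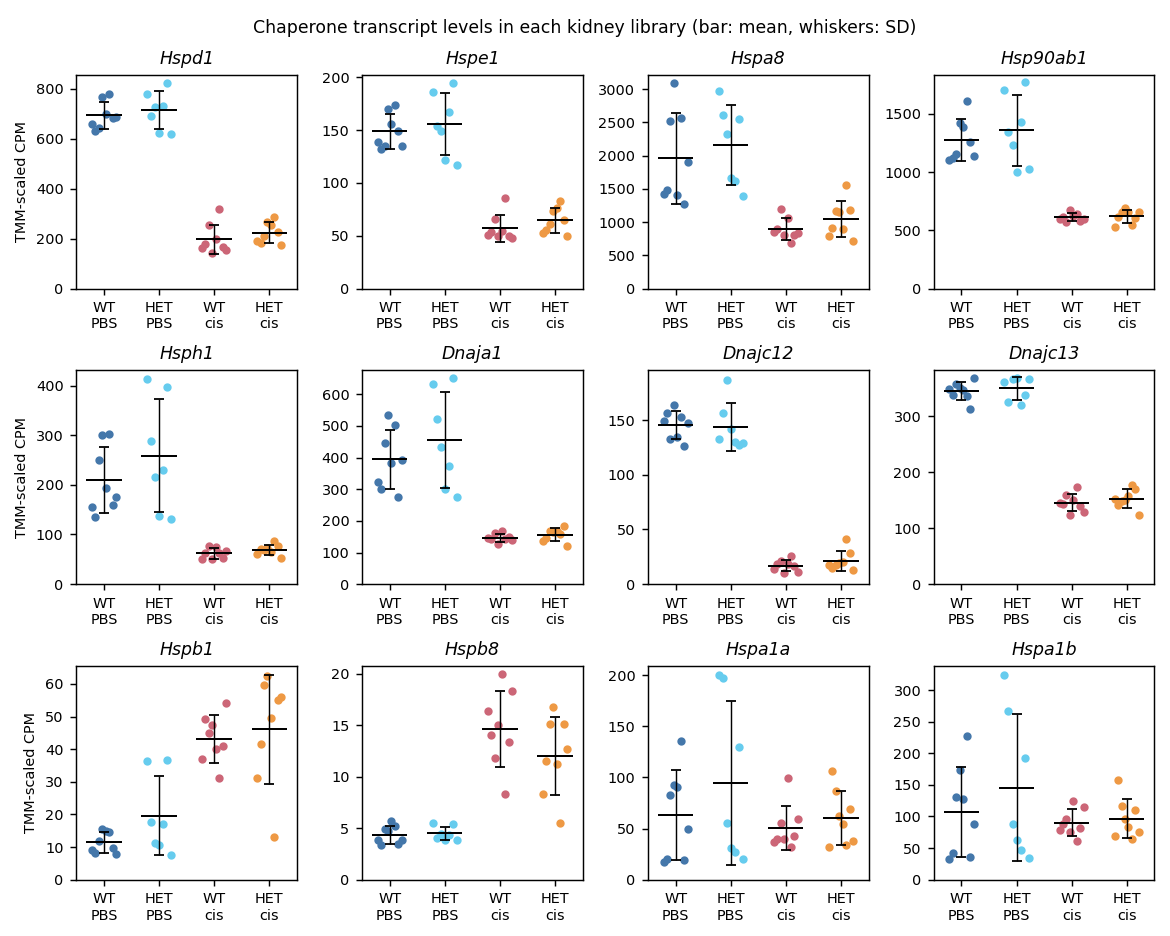
TMM-scaled CPM (vertical axis, from 0) of 12 members in each library by group, with the mean as a bar and the SD as whiskers. Hspd1, Hsph1, Dnaja1, Dnajc12 and Dnajc13 show no overlap between PBS and cisplatin libraries, Hspb8 is higher in all cisplatin libraries, and the Hspa1a and Hspa1b groups overlap, with the widest scatter under PBS.

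The 2 classic stress-induced Hsp70 genes were not called in either genotype. Hspa1a (chr17:34969190-34972156) and Hspa1b (chr17:34956436-34959238) lie 9951 bases apart and were fractional in every library, so their counts were also summed. The sum had lowest, median and highest levels of 50.1, 176 and 364 CPM in WT PBS, 54.8, 144 and 524 in HET PBS, 92.9, 126 and 224 in WT cisplatin and 97.7, 148 and 263 in HET cisplatin libraries. All cisplatin libraries lay inside the range of the PBS libraries. The mean of log2(CPM + 0.5) was 0.02 higher under cisplatin in WT (two-sided exact permutation p = 0.964) and differed by -0.21 in HET (p = 0.682 by the same exact permutation test), where the smallest p possible is 0.000155. With library totals and as log2(TPM + 1) the WT difference was 0.41 and 0.44 (exact permutation p = 0.331 and 0.285). The HET difference was then 0.195 and 0.248 (exact permutation p = 0.699 and 0.62). Without the 5 libraries at odds with their label the difference was 0.22 in WT and 0.21 in HET (exact permutation p = 0.577 and 0.714). In the model across all genes, the values were -0.33 in WT and -0.65 in HET mice for Hspa1a (adjusted p = 0.545 and 0.236) and -0.25 in WT and -0.59 in HET mice for Hspa1b (0.595 and 0.212), with standard errors of 0.39 to 0.46.

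All 11 members listed as ER passed the threshold under TMM scaling, 10 lower and 1 higher in each genotype. Of all genes, 29.6% (WT) and 28% (HET) fell. This list was written with earlier results of these data known, so the count describes the listed genes and not every ER chaperone. The median log2 fold changes were -0.39 in WT and -0.39 in HET, and most changes were small. With library totals 4 were lower and 3 higher in WT, and 2 and 3 in HET, where 14.9% and 12.5% of all genes fell and 61.4% and 62.2% rose. Hsp90b1, the Hsp90 of the ER lumen, was 479 to 699.8 CPM in WT PBS and 269 to 385 in WT cisplatin libraries, without overlap, and the log2 fold change was -0.84 ± 0.12 (SE) in WT and -0.63 ± 0.13 in HET mice (adjusted p = 6.18e-07 and 9.25e-05). Dnajc3, a lumenal co-chaperone that also restrains the kinase PERK, fell by 0.87 in WT and 0.79 in HET, and fell under all 3 scalings. Dnajb11, a J protein of the lumen, fell by 0.74 and 0.58, and Dnajb9, an inducible J protein of the lumen, by 0.37 and 0.54. With library totals Dnajb9 was 0.03 in WT and -0.14 in HET, neither past the threshold. Dnajb12 and Dnajb14, anchored in the ER membrane, fell by 0.59 and 0.39 in WT, and Hspa13 by 0.41 in WT and 0.23 in HET. In HET the call of Hspa13 turned round under the other scalings, to 0.18 with library totals and 0.24 as log2(TPM + 1) (adjusted p = 0.00224 with edgeR and 0.000226 with limma). The single riser was Dnajc10 (0.33 in WT and 0.28 in HET mice), a J protein with disulfide reductase activity.

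Dnajc12 had the largest fall of all members in both genotypes under all 3 scalings, and 3 other Dnajc genes are described with it. Dnajc12, a cytosolic J protein known as a partner of the aromatic amino acid hydroxylases, had lowest, median and highest levels of 126, 148 and 164 CPM in WT PBS, 127, 133 and 187 in HET PBS, 10.5, 17.5 and 25.5 in WT cisplatin and 12.6, 18.5 and 41.1 in HET cisplatin libraries. The cisplatin libraries lay far below the lowest PBS library, and the log2 fold change was -3.10 ± 0.19 (SE) in WT and -2.74 ± 0.19 in HET mice (adjusted p = 7.14e-15 and 1.55e-13). Dnajc6 (auxilin) and Dnajc13 serve clathrin uncoating and endosome traffic. Dnajc6 was 34.9 to 57.9 CPM in WT PBS and 10.4 to 19 in WT cisplatin libraries, and the log2 fold change was -1.65 ± 0.16 (SE) in WT and -1.19 ± 0.17 in HET mice (adjusted p = 3.74e-10 and 3.38e-07). Dnajc13 was 314 to 369 and 124 to 173 CPM in the same groups, and the log2 fold change was -1.24 ± 0.06 (SE) in WT and -1.19 ± 0.07 in HET mice (adjusted p = 1.33e-16 and 8.26e-16). Dnajc22 was 66.2 to 77.3 CPM in WT PBS and 18.6 to 34.3 in WT cisplatin libraries, with log2 fold changes of -1.50 in WT and -1.22 in HET mice. In HET mice the highest cisplatin library for Dnajc12, Dnajc22 and Dnaja3 was HET cisplatin 6, which also had the most Lrp2 (2684 CPM) and the least Havcr1 (31.6 CPM) of its group. Without WT cisplatin 6 and HET cisplatin 6, the cisplatin libraries with the most Lrp2 of their groups, 34 members fell and 17 rose in WT and 33 and 17 in HET.

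Hspb1, Hspb2, Hspb6 and Hspb8 rose in both genotypes under all 3 scalings. The 8 genes counted as small heat shock genes were taken by a symbol of Hspb and a number, Hspb11 included, and their protein class was not checked. Of these 8, Hspb3 and Hspb9 were not tested, and 4 of the other 6 rose in each genotype under TMM and none fell, against 33.6% (WT) and 31% (HET) of all genes higher. With library totals all 6 rose in both, where 61.4% and 62.2% of all genes did. Hspb1 (Hsp27), which holds unfolded proteins and binds actin filaments, had lowest, median and highest levels of 7.72, 10.6 and 15.7 CPM in WT PBS, 7.67, 17.1 and 36.5 in HET PBS, 31.2, 43 and 54.1 in WT cisplatin and 13.1, 52.3 and 62.6 in HET cisplatin libraries. In WT the groups did not overlap, and the log2 fold change was 1.92 ± 0.28 (SE) in WT and 1.23 ± 0.29 in HET mice (adjusted p = 6.53e-07 and 0.000476). In HET the groups overlapped: HET PBS 1 and 6 were at 36.4 and 36.5 CPM and HET cisplatin 6 at 13.1, while the other HET PBS libraries were at 7.67 to 17.6. Hspb8, which acts with Bag3 in the removal of misfolded proteins, was 3.33 to 5.71 CPM with PBS and 8.29 to 20 with cisplatin in WT mice, and 3.82 to 5.47 and 5.54 to 16.8 in HET mice. Its groups did not overlap in either genotype, and the log2 fold change was 1.74 ± 0.18 (SE) in WT and 1.42 ± 0.19 in HET mice (adjusted p = 8.71e-10 and 1.24e-07). Hspb6 (0.49 in WT and 0.43 in HET mice) and Hspb2 (0.52 in WT and 0.62 in HET mice), known from muscle, rose at low levels of 3.27 to 5.43 and 0.653 to 1.73 CPM in WT PBS libraries. Hspb2 missed the threshold in WT when WT PBS 1 or WT PBS 6 was left out (highest adjusted p = 0.0579). Exons of Hspb2 overlap those of Cryab, which was 67.5 to 94.7 CPM in WT PBS and 104 to 163 in WT cisplatin libraries, and exons of Hspb6 overlap those of Lin37 and Proser3. The summed level of 5 smooth muscle markers (Acta2, Myh11, Tagln, Cnn1, Des) was 97.2 to 119.5 CPM in WT PBS and 98.7 to 143 in WT cisplatin libraries, with none at 0, and that of 5 skeletal muscle markers was at most 1.08 CPM in any library, with up to 2 of the 5 at 0 in a group. Hspb7 (0.23 in WT and -0.04 in HET mice) and Hspb11 (0.07 in WT and 0.17 in HET mice) did not pass under TMM scaling.

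The other members that rose did so from low levels or by little. Hspa2, an Hsp70 best known from the testis, rose by 0.70 in WT and 0.76 in HET on the log2 scale, and was 3.77 to 7.42 CPM in WT PBS and 6.23 to 10.5 in WT cisplatin libraries, with overlap. Dnajc9, a histone chaperone of dividing cells, was 9.5 to 11.6 CPM in WT PBS and 12.7 to 20.2 in WT cisplatin libraries, without overlap in either genotype (0.78 in WT and 0.97 in HET mice). Hspbap1 (0.88 in WT and 0.77 in HET mice), named for its binding to Hspb1, Dnajb5 (0.65 in WT and 0.66 in HET mice) and Dnajc17 (0.56 in WT and 0.79 in HET mice) also rose. Dnaja2, a class A partner of Hspa8, rose by 0.26 and 0.33, opposite to Dnaja1, Dnaja3 and Dnaja4. Dnajc5, the cysteine string protein of secretory vesicles, rose by 0.57 and 0.48 and was the most abundant riser after Dnaja2 by CPM, at a mean of 176 CPM in WT cisplatin libraries. Dnajb13 had the largest fold change of all members (3.63 in WT and 3.64 in HET mice) at a mean of 0.257 CPM in WT cisplatin libraries, with 4 counts in all 8 WT PBS libraries against 63 in the 8 WT cisplatin libraries. Its exons overlap those of Ucp2, which rose by 1.07 and 0.67 at 137 to 211 CPM, and without strand in the counting reads of the 2 cannot be told apart. Leaving out WT PBS 5 or 6, or HET PBS 4, moved its fold change by over 1.5 times, to as much as 4.25 in WT and 4.52 in HET. Dnajb3 (1.47 in WT and 2.08 in HET mice) lies inside the Ugt1a cluster on the opposite strand, where Ugt1a10 was 3.88 to 11.7 CPM in WT PBS and 60.8 to 295 in WT cisplatin libraries. Among the members not tested, Hspb3, Dnajb8 and Dnajc5g had no reads in any library, Dnajc5b had 2 in all 31, and Hspb9 and Dnajb7 had 4 and 7 in WT PBS and 8 and 20 in WT cisplatin libraries.

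The genes around the chaperones were taken from lists and are given under TMM scaling, where 29.6% of all genes fell and 33.6% rose in WT, and 28% and 31% in HET. Scaled to library totals, 14.9% of all genes fell and 61.4% rose in WT, and 12.5% and 62.2% in HET. Of 24 co-chaperones, WT mice had 15 lower and 4 higher and HET mice 15 lower and 2 higher (median log2 fold change -0.24 and -0.22), and with library totals 8 were lower and 14 higher in WT, and 7 and 13 in HET. Fkbp4, an immunophilin that carries steroid receptors on Hsp90, fell by 1.29 and 1.17, St13 (Hip) by 0.67 and 0.71, and Tomm70a, the import receptor that docks Hsp70 and Hsp90, by 0.52 and 0.50. Bag2, an inhibitor of the ubiquitin ligase Stub1, rose by 1.33 and 1.29. Of 11 helpers of the mitochondrial and ER machines, 9 fell and 1 rose in each genotype (median -0.48 and -0.40), and with library totals 5 were lower and 2 higher in each. Trap1, the Hsp90 of mitochondria, fell by 1.16 and 1.05, the matrix protease Lonp1 by 1.02 and 0.86, the disaggregase Clpb by 0.84 and 0.77, and Sil1, a nucleotide exchange factor of the ER, by 0.88 and 0.86. Of the cytosolic chaperonin and prefoldin genes, 9 of 14 fell and none rose in each genotype (median -0.20 in both), led by Tcp1 (-0.52 in WT and -0.47 in HET mice) and Cct6a (-0.47 in WT and -0.42 in HET mice). With library totals, which raise most genes, the chaperonin and prefoldin counts were 1 lower and 9 higher in WT and 0 and 11 in HET. The WT values of Cct4 and Pfdn2 were then 0.01 each, against -0.38 and -0.38 under TMM.
Of the heat shock factors, Hsf1 was not past the threshold (-0.07 in WT and -0.10 in HET mice, adjusted p = 0.279 and 0.169), at 19.5 to 22.8 CPM in WT PBS and 18.5 to 23 in WT cisplatin libraries. Its sign turned with library totals (0.32 in WT and 0.31 in HET, below the shift of all genes). Hsf2 (-0.10 in WT and -0.15 in HET mice) was not called either, Hsf4 rose from a mean of 0.577 CPM in WT PBS (0.65 in WT and 0.75 in HET mice), and Hsbp1, which binds heat shock factor trimers, fell by 0.23 in each genotype. With library totals Hsbp1 was higher instead, at 0.163 in WT and 0.178 in HET (adjusted p = 0.00358 and 0.00246 with edgeR), also below the shift of all genes. Among the crystallins related to the small heat shock proteins, Cryab rose by 0.59 and 0.53 and Cryaa fell by 2.98 and 3.30.

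The PBS kidneys themselves differed in heat-inducible chaperones. Sample numbers in the 600 series were held by 4 of 8 WT PBS and 4 of 7 HET PBS libraries. Under cisplatin 6 of 8 WT and 8 of 8 HET libraries held them. Of the libraries named below, WT PBS 1, 2, 3 and 4 and HET PBS 1 and 2 are outside that series. The part of this imbalance in the spread was not tested. Hspa1a ran from 17.1 to 136 CPM in WT PBS and 20.7 to 200 in HET PBS, a ratio of 7.98 and 9.68 between the highest and lowest library, against 3.12 and 3.36 under cisplatin. Without WT cisplatin 5 the WT cisplatin ratio was 1.87, and without the 5 libraries at odds with their label the PBS ratios were 5.4 and 9.56. For Hspd1 the order was the other way, with ratios of 1.23 and 1.33 under PBS and 2.21 and 1.67 under cisplatin. WT PBS 3, 4 and 6 and HET PBS 1, 2 and 6 were above their group's median in Hspa1a, Hspa1b, Hsph1, Hspa8 and Dnajb1, and WT PBS 1, 2 and 7 and HET PBS 4 and 7 were below it in all 5.

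**Figure D4:**
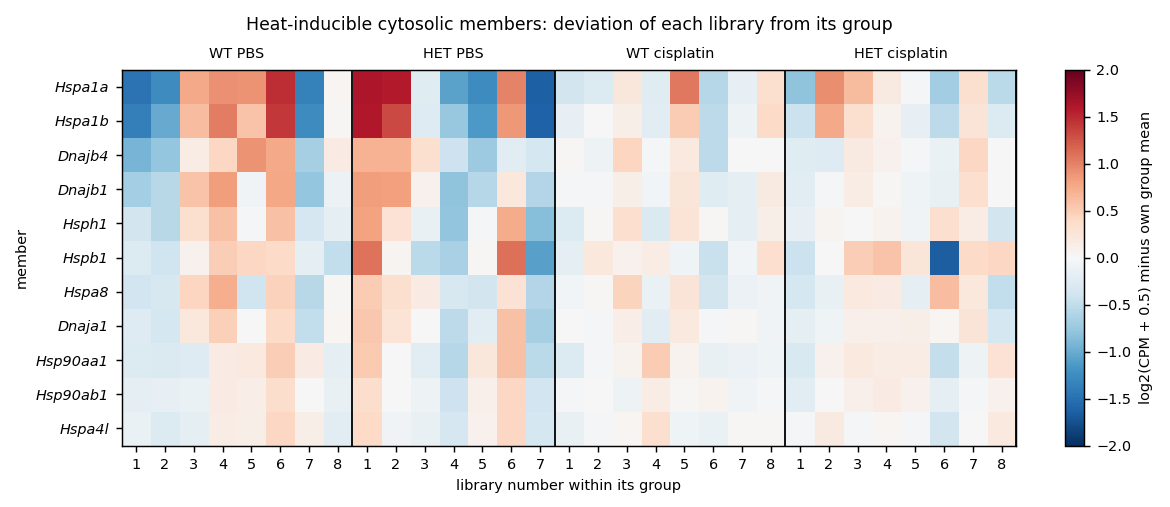
Deviation of log2(CPM + 0.5) from the mean of the library's own group (colour scale) for the 11 heat-inducible cytosolic members (rows) in the 31 libraries (columns, numbered within their group). All 11 rows are above 0 in WT PBS 4 and 6 and HET PBS 1 and below 0 in WT PBS 1 and 2 and HET PBS 4 and 7, and most cisplatin columns are paler.

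Relations were computed on these deviations within each treatment, 20 in all with Benjamini-Hochberg adjustment. WT and HET libraries of 1 treatment were pooled after each group's own mean was taken off, and libraries of 1 group share that mean. Among the 15 PBS libraries, Hsph1 went with Hspa8, r = 0.85 (rho = 0.79, permutation p = 0.00011 and 0.00097, adjusted p = 0.00044 and 0.00242). It went likewise with Dnajb1, r = 0.87 (rho = 0.85, permutation p = 0.0002 and 0.00027, adjusted p = 0.000667 and 0.00108), and with Hsp90aa1, r = 0.83 (rho = 0.82, permutation p = 0.00106 and 0.00086, adjusted p = 0.00236 and 0.00242). Leaving out the 2 libraries farthest in Hsph1 (HET PBS 1 and 7) gave r = 0.81, 0.85 and 0.76 in that order. Without the 5 libraries at odds with their label, r was 0.83, 0.88 and 0.64 over 12 PBS libraries, the last with an adjusted p of 0.09 by permutation. Among the 16 cisplatin libraries Hsph1 still went with Hspa8, r = 0.79 (rho = 0.72, permutation p = 0.00028 and 0.00255, adjusted p = 0.0008 and 0.00567), while its relations with Dnajb1 (r = 0.40, adjusted p = 0.215 by permutation) and Hsp90aa1 (r = -0.33, adjusted p = 0.313) did not pass. The difference between treatments was not tested.
Hspa1b went with Hspa1a in both treatments (r = 0.99 and 0.95, permutation p = 1e-05, the smallest these permutations give), as far as the split of reads between near copies lets them be separated. It also went with the immediate early gene Fos, r = 0.62 (rho = 0.70, permutation p = 0.0196 and 0.00533, adjusted p = 0.0392 and 0.0107) under PBS and r = 0.78 (rho = 0.79, permutation p = 0.00034 and 0.00049, adjusted p = 0.00085 and 0.00163) under cisplatin. Fos itself ran from 1.4 to 212 CPM in WT PBS libraries. For the clock genes the values of Hsph1 did not pass: r = -0.29 with Arntl and 0.34 with Per1 under PBS (adjusted p = 0.413 and 0.297 by permutation). Under cisplatin they were 0.22 and 0.06.

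Hspd1 and Hspe1 varied together in both treatments, r = 0.96 (rho = 0.94, permutation p = 1e-05 and 2e-05, adjusted p = 5e-05 and 0.0001) under PBS and r = 0.97 (rho = 0.93, permutation p = 1e-05 and 1e-05, adjusted p = 5e-05 and 6.67e-05) under cisplatin. Leaving out the 2 libraries farthest in Hspd1 gave r = 0.94 and 0.95. The promoter this pair shares is printed above, and its part in the relation was not tested. Exons of Hspd1 and Hspe1 overlap on opposite strands, and whether counting used strand is not given. In the ER, Dnajb9 went with Hsp90b1 under cisplatin, r = 0.62 (rho = 0.68, permutation p = 0.0236 and 0.00904, adjusted p = 0.0429 and 0.0164), but not past the threshold under PBS (r = 0.26, adjusted p = 0.413 by permutation), where it was -0.04 without the 5 libraries at odds with their label. With library totals the cisplatin value was 0.47 (adjusted p = 0.157 by permutation). Hspb1 and Havcr1, the tubule injury gene Kim-1, did not pass the threshold, with r = 0.79 (rho = 0.47, permutation p = 0.0458 and 0.0925, adjusted p = 0.0764 and 0.154) under cisplatin, and r = 0.58 without WT cisplatin 6 and HET cisplatin 6, where HET cisplatin 6 is the lowest in both genes. Under PBS r was -0.20, and 0.09 without the 5 libraries (adjusted p = 0.598 and 0.887 by permutation).
How far each member followed the proximal tubule marker Lrp2 (megalin) among the 16 cisplatin libraries was asked after the data were seen, for 10 members. Hspd1 gave r = 0.90 (rho = 0.97, permutation p = 1e-05 and 1e-05, adjusted p = 5e-05 and 5e-05), and Hspe1 r = 0.89 (rho = 0.94, permutation p = 1e-05 and 1e-05, adjusted p = 5e-05 and 5e-05). Dnajc6 gave r = 0.89 (rho = 0.87, permutation p = 3e-05 and 7e-05, adjusted p = 0.0001 and 0.0002), and Dnajc12 r = 0.87 (rho = 0.87, permutation p = 6e-05 and 8e-05, adjusted p = 0.00015 and 0.0002). Without the 2 libraries farthest in the member, these 4 values of r were 0.88, 0.81, 0.76 and 0.84. Dnaja1 (r = 0.68) and Hsph1 (r = 0.62) were lower over all 16 libraries (adjusted p = 0.012 and 0.023 by permutation). After the same omission their r was 0.53 and 0.34, and those adjusted p do not apply to these values. Hspa8 (r = 0.44), Hsp90ab1 (-0.24), Hspb1 (-0.44) and Hspb8 (-0.47) did not pass the threshold. For Hsph1 the 2 libraries left out were WT cisplatin 4 and HET cisplatin 8, and its relation without them was not tested. Differences between these correlations were not tested.

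**Figure D5:**
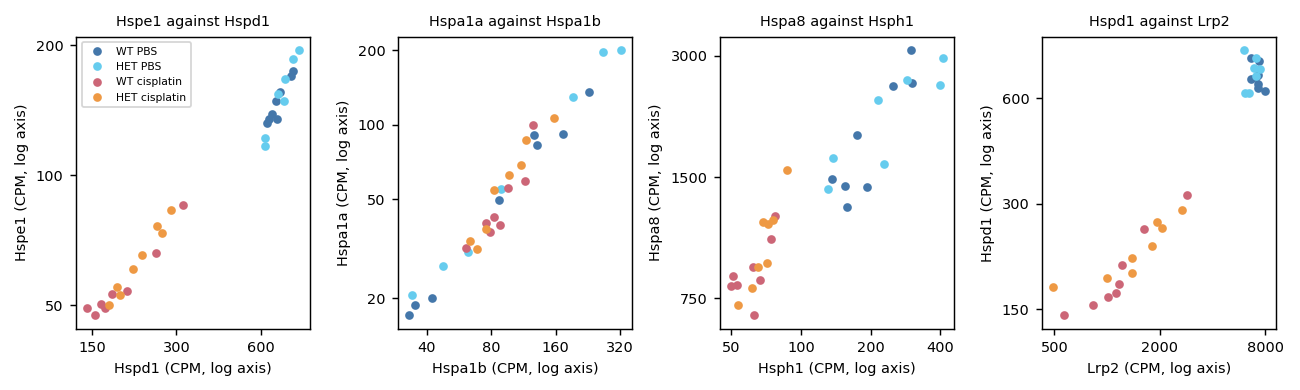
CPM of pairs of genes in each library on log axes, coloured by group: Hspe1 against Hspd1, Hspa1a against Hspa1b, Hspa8 against Hsph1, and Hspd1 against Lrp2. The PBS and cisplatin libraries form separate clouds for Hspd1, and the cisplatin libraries run from 144 to 317 CPM of Hspd1 along with Lrp2, while the Hspa1a and Hspa1b clouds overlap.

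No member passed the threshold between genotypes. Of the 67 tested, 0 were called in HET against WT under PBS, where 0% of all genes were higher and 0% lower, and 0 under cisplatin, where 0.00519% were higher and 0% lower, and 0 in the interaction of genotype and cisplatin (0% and 0% of all genes). At an unadjusted p under 0.05 the counts were 1, 2 and 1, and DESeq2 also called 0 members in each. Under PBS the smallest p was that of Hspb1, at a log2 difference (HET against WT) of 0.78 ± 0.29 (adjusted p = 0.778), followed by Dnajb9 (0.26) and Dnajc17 (-0.17). Hspb1 was 7.72, 10.6 and 15.7 CPM (lowest, median and highest) in WT PBS and 7.67, 17.1 and 36.5 in HET PBS, and the groups overlapped. Its highest libraries, HET PBS 1 and 6, are those with near-absent Nbl1. Without the 5 libraries at odds with their label the difference was 0.23 ± 0.27 (adjusted p = 1). All 11 heat-inducible cytosolic genes were higher in HET than in WT under PBS (median 0.21, none past the threshold), and without those libraries 8 were higher and 3 lower (median 0.04). Under cisplatin the smallest p belonged to Hspa13 (0.12 ± 0.06, adjusted p = 0.886), Hspa9 (0.15) and Dnaja2 (0.09). In the interaction they belonged to Hspa13 (0.18 ± 0.08, adjusted p = 0.846), Hspa12a (0.28) and Dnajc6 (0.46). Hspa12a, an atypical Hsp70, fell in WT (-0.45, adjusted p = 0.000136) and was at -0.17 in HET (adjusted p = 0.134), which without HET cisplatin 4 became 0.0366 as an adjusted p. A p over the threshold does not show that the genotypes are alike.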

How the data were processed

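The data are 31 kidney mRNA libraries in 4 groups. The submitters' processing notes list GRCm38 (mm10) and the tools featureCounts, STAR and fastp, without versions. The strand setting and the treatment of reads with several places are not given there. The authors deposited 3 columns for each library: estimated counts, TPM and FPKM. Of the deposited estimated counts 12.5% are not whole, and 27.5% of those of the members, so they were rounded before testing. The deposited TPM served to compare levels between genes, and the deposited FPKM were not used. No library pair held identical values. Samples were grouped by the genotype and treatment in the labels.

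Genes passing filterByExpr (19268) entered 1 model of 4 group means in edgeR 4.0.16 (quasi-likelihood test, TMM, prior count 0.125), with Benjamini-Hochberg adjustment over all of them and a threshold of 0.05. This gave 5 comparisons. The procedure was tested on simulated data. CPM are TMM-scaled, relations use log2(CPM + 0.5) less the group mean with 100000 permutations, and the Hspa1a and Hspa1b sum an exact permutation test. Alternatives were DESeq2 1.42.0, limma 3.58.1 on log2(TPM + 1), other scalings, filters, sample subsets and leaving out each library. R was 4.3.3, numpy 2.4.6, pandas 2.3.3 and scipy 1.17.1. Positions follow GENCODE M21 and promoters RefSeq (GRCm38.p6).

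The members and lists were chosen with earlier results of these data known. The text names all heat-inducible members, up to 6 with the smallest p in each role list and the 15 with the largest change among those past the threshold (with a group mean of 1 CPM or more), the 3 with the smallest p in each genotype comparison, the untested members, and up to 4 genes of each pathway list. The result of 1 item is not reported here. Other members, such as Dnajb3, Dnajb13 and the full list of 17 that fell and 17 that rose, were named after their values were seen.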

Additional observations from a re-analysis of the deposited data

Results flagged for a closer look

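In each group of 7 or 8 libraries, the gap between the most extreme library and its nearest neighbour was set against the group's range for 44 members, 176 groups in all. In 11 the gap exceeded Dixon's critical value (0.526 for 8 libraries, 0.568 for 7), and chance alone marks about 1 group in 20. HET cisplatin 6 stood apart in 5 of them, with Dnaja3 at 101 CPM, Dnajc19 at 32.5, Dnajc22 at 46.1, Hspb7 at 6.92 and Hspa4l at 66.9. This library also had the most Lrp2 and the least Havcr1 of its group. WT cisplatin 4 stood apart with Hsp90aa1 at 634 CPM and Hspa4l at 112, and it had the least Lrp2 of the WT cisplatin libraries. The others were Dnajc9 in WT cisplatin 6 (12.7 CPM), Hspa1a in WT cisplatin 5 (99.4), Hspa4 in WT PBS 6 (219) and Hspb11 in WT PBS 1 (3.47).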

How the results depend on the processing

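Under DESeq2, size factors by relative log expression, both low-count filters, and the sample number range as a covariate, counts of members higher and lower stayed within 1.5 times those reported, as they did with only the samples numbered in the 600 series (15 higher and 33 lower in WT, 14 and 31 in HET), without the 5 libraries at odds with their label and without each library in turn. With limma on log2(TPM + 1), 31 members rose and 20 fell in WT and 35 and 17 in HET, while scaling to library totals gave 32 higher and 22 lower in WT and 32 and 18 in HET. Both scalings move the median of all genes up, to 0.28 to 0.46 from 0.06 under TMM. Among the members, past the threshold in the opposite direction to TMM were Dnajc1, Dnajc2, Dnajc25 and Hspa14 in WT and Dnajc1, Dnajc16, Hspa4, Hspa9 and Hspa13 in HET. Of the named genes around them, Hsbp1 fell under TMM but was higher past the threshold in both genotypes under both of these scalings. Cct4 and Pfdn2 were higher past it as log2(TPM + 1) in both genotypes, and Cct4 also with library totals in HET. Signs turned for the following log2 fold changes of named genes.

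On the TPM scale they were in WT Dnajb1 (0.054), Dnajb9 (0.095), Hspa4 (0.052), Hsp90aa1 (0.056), Hspa12a (0.174), Hspa13 (0.07), Hspbp1 (0.36), Dnajb14 (0.082), Hspa1b (0.451), Hspa1a (0.353), Hsbp1 (0.226), Hsf2 (0.313), Hsf1 (0.303), Tcp1 (0.025), Cct4 (0.155) and Pfdn2 (0.191), and in HET Hspb7 (0.201), Hspa4 (0.183), Hspa9 (0.134), Hspa12a (0.472), Hspa4l (0.272), Dnajb4 (0.451), Hspa13 (0.238), Dnajb14 (0.106), Hspa1b (0.249), Hspa1a (0.199), Hsbp1 (0.258), Hsf2 (0.281), Hsf1 (0.355), Tcp1 (0.1), Cct4 (0.266) and Pfdn2 (0.163). With library totals they were in WT Dnajb9 (0.029), Hspbp1 (0.316), Dnajb14 (0.004), Hspa1b (0.157), Hspa1a (0.08), Hsbp1 (0.163), Hsf2 (0.298), Hsf1 (0.321), Cct4 (0.014) and Pfdn2 (0.008), and in HET Hspb7 (0.359), Hspa9 (0.05), Hspa12a (0.231), Hspa4l (0.259), Dnajb4 (0.316), Hspa13 (0.178), Dnajb14 (0.01), Hsbp1 (0.178), Hsf2 (0.257), Hsf1 (0.307) and Cct4 (0.13). With the 600 series only they were Hspa4l (-0.064) and Dnajb4 (-0.101) in WT and Dnajb4 (0.432), Hspbp1 (-0.007), Hspa1b (0.191) and Hspa1a (0.209) in HET. Hspa4l in WT was also -0.005 under DESeq2 and under relative log expression factors, and -0.008 with the number range as a covariate. Without the 5 libraries, Hspb7 (0.073) and Hspa4l (0.033) turned in HET.

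The HET difference of the Hspa1a and Hspa1b sum was 0.195 with library totals, 0.248 as log2(TPM + 1) and 0.206 without the 5 libraries (exact permutation p = 0.699, 0.62 and 0.714). Of 20 relations, those of Hsph1 with Arntl (-0.013) and Per1 (-0.09) in cisplatin libraries turned with library totals, and without the 5 libraries those of Dnajb9 with Hsp90b1 (-0.042) and Hspb1 with Havcr1 (0.09) in PBS libraries turned. The cause was not tested. No paired analysis was possible because the labels number samples without pairing them across groups, and replicate numbers only name samples here.

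Leaving out single libraries ended the WT calls of Hspa14 (9 of 31 fits), Dnajc2 (6) and Hspb2 (without WT PBS 1 or 6), and that of Hspa12b in HET (10). Calls were gained in WT by Dnajb1 (6 fits, lowest adjusted p = 0.0233) and Dnajc11 (without WT cisplatin 3), and in HET by Hspa14 (6 fits, lowest adjusted p = 0.0323) and Hspa12a (without HET cisplatin 4). The depth (24650000 to 37300000 counts) limits Dnajb13 and the 7 untested members, which have few counts or none.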
